A study of Mus musculus with 16 samples.

Results

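The nitric oxide and cyclic GMP pathway was described in the mouse bladder body through 8 genes. They were the NO synthases Nos1, Nos2 and Nos3, the soluble guanylyl cyclase subunits Gucy1a1 (also named Gucy1a3) and Gucy1b1 (Gucy1b3), the phosphodiesterase Pde5a, the cyclic GMP-dependent kinase Prkg1 and its substrate Mrvi1 (Irag1). A probe belonged to a gene when the accession listed for it in the array files carried that symbol in the reference annotation, which gave 10 probes. Of the 8 genes, 7 entered the 26781 genes tested, and Nos1 did not. NO synthases make nitric oxide from arginine, and the gas diffuses to smooth muscle cells and binds the heme of soluble guanylyl cyclase, which then makes cyclic GMP. Cyclic GMP activates the kinase, which lowers calcium and relaxes the muscle, and the phosphodiesterase ends the signal by breaking cyclic GMP down. In the lower urinary tract the pathway is best known for relaxing the bladder neck and urethra, and for the use of phosphodiesterase inhibitors against urinary symptoms.

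The study asked which genes change in the mouse bladder with age and compared mature mice (MAT, 12 months) with aged mice (AGED, 27 to 30 months) of the same sex. The mice were C57BL/6, the labels name no treatment, and the dissected bladder body gave total RNA. Each age was represented by 4 male and 4 female arrays, and the labels do not say that animals were pooled. Males and females were placed on different slides, so sex and slide cannot be told apart. Age follows the position on the slide, with row 1 taken by MAT and row 2 by AGED samples, so these cannot be told apart either. All levels are log2 signals less the 75th percentile of the array, so that 0 stands for that percentile. Levels were compared between groups for 1 probe at a time, except in 1 setting that averaged a gene's probes. Mean signals of probes served to choose the probe of a gene and the marker named from a list. They also served to describe a dim list and to set genes of like signal beside it. AGED male replicate 1 was the dimmest array, with a median signal of 54.5 and 52.3% of probes well above background. The MAT male arrays had 76.5 to 87.3 and 60.4% to 65.9%. Male medians are also given without AGED male replicate 1. So are male differences of the probe chosen for each tested member and of genes called or at an end of a pathway list in males. Those of second probes and of markers shown as examples are not. With 4 arrays in a group, differences well under 2-fold are measured with wide intervals. The tissue carried its markers: all 10 listed smooth muscle genes and all 10 listed urothelium genes were well above background on every array. In these tissue samples fewer cells of a type and less RNA per cell cannot be told apart.

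None of the 7 tested members passed the threshold of limma, an adjusted p under 0.05 with at least a 2-fold change, in either sex. In AGED males 0 of 7 were called higher and 0 lower, where 0.276% and 0.571% of all genes tested were called higher and lower. Without a filter on dim probes that balance turned, with 391 of 37208 genes called higher and 156 lower. In AGED females 0 of 7 were called higher and 0 lower, beside 0.175% and 0.0112% of all genes. That female count of all genes was 50, and from 1 to 127 with an array left out. The test of a difference in the age change between the sexes called 0 of 7, beside 0.149% of all genes. At an unadjusted p under 0.05 with the same fold limit, limma and the methods' t-test called 0 of 7 members in males and 0 of 7 in females. Of all 26781 genes limma then called 747 in males and 509 in females, and the methods' t-test 496 and 393. Without a fold limit, limma's unadjusted p was under 0.05 for 1 member in males, Mrvi1, beside 4367 of all 26781 genes, and for 0 in females, beside 2825. The AGED and MAT arrays were separate for 0 of 7 members in males, where 3.91% of all genes had every AGED array above every MAT array and 4.06% had every one below. In females 1 of 7, Gucy1b1, had every AGED array below every MAT array, beside 5.78% of all genes, and 0 of 7 had every one above, beside 5.02%.

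The signs of the differences below follow the labels of the arrays, and whether the labels of MAT and AGED were exchanged is an open question. The paper lists S100a9 among its top genes lower in aged mice of both sexes, where the labels give it as higher. The other top genes of the paper, higher or lower, are not reported here, so S100a9 alone does not show the extent of the conflict. Its counts lean as the labels do, with more genes lower than higher in males and the reverse in females. Here limma called 74 higher and 153 lower in males, and 47 and 3 in females. An exchange would turn the sign of every age difference and was not tested. A left-out range runs from the lowest to the highest value of an estimate when each of the 16 arrays is left out in turn, and normexp marks the value with that background correction. The median log2 difference between AGED and MAT over the 7 members was -0.20 in males (left-out range -0.36 to -0.09, -0.15 without AGED male replicate 1, normexp -0.21) and -0.24 in females (left-out range -0.28 to -0.18, normexp -0.19), beside 0.00 and 0.00 over all genes tested. With array weights the male median of the members was -0.03. The estimate was below 0 for 5 of 7 members in males and 5 of 7 in females, beside 49.9% and 50.4% of all genes. Gucy1a1, Gucy1b1, Pde5a and Mrvi1 had estimates below 0 in both sexes, 4 of 7 members beside 29.3% of all genes. With quantile or median scaling or the authors' log2 table these counts were the same, but with normexp background correction, which moved the median of all genes in males by 0.11, Gucy1b1 and Pde5a had estimates above 0 in males and Nos3 one below 0. Without AGED male replicate 1, Gucy1b1 was above 0 in males.

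**Figure D1:**
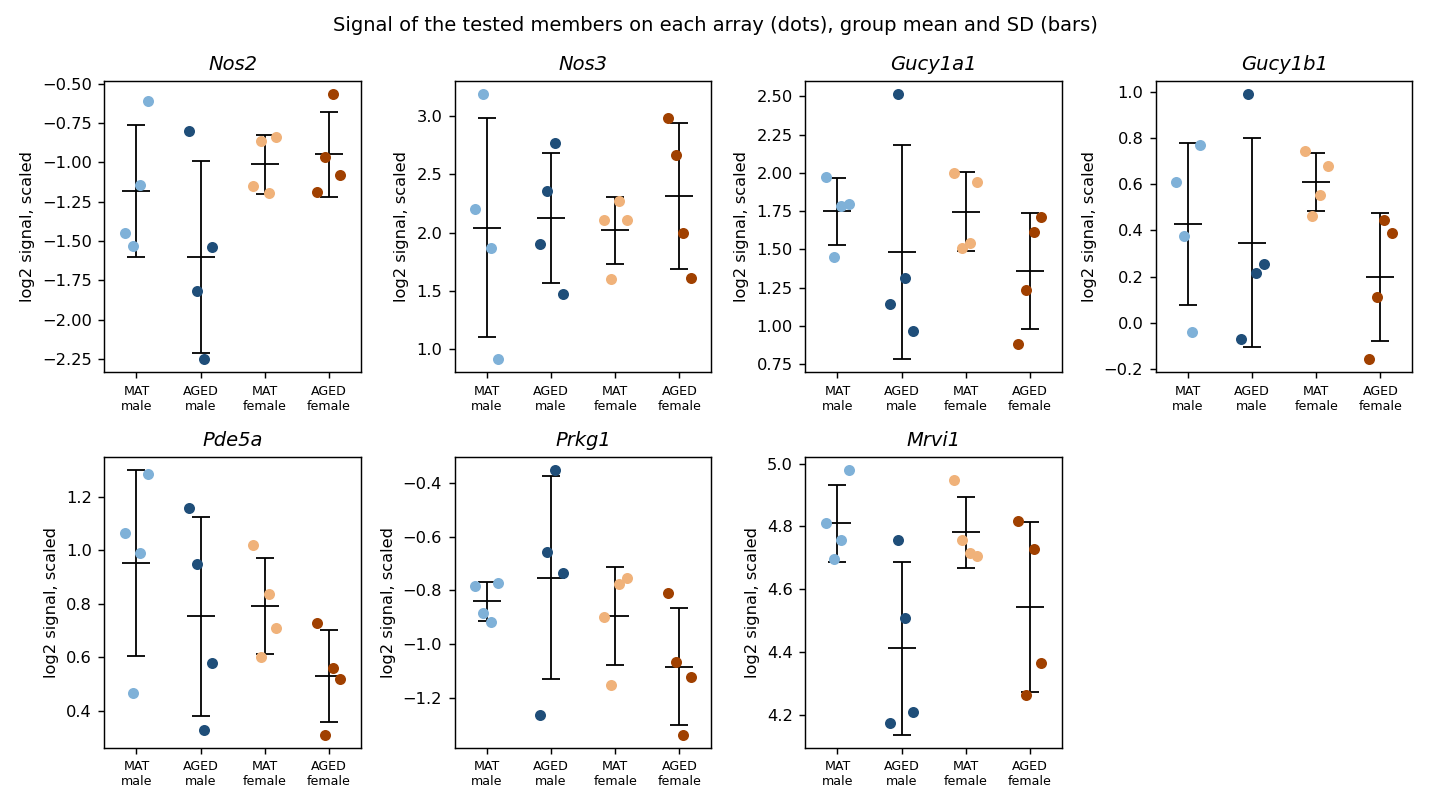
Scaled log2 signal of the 7 tested members (vertical axes) in the 4 groups (horizontal axes), with a dot for each array and bars for the group mean and SD (n = 4). The MAT and AGED dots of a sex overlap in every panel except Gucy1b1 in females, where the AGED dots lie from -0.16 to 0.45 and the MAT dots from 0.46 to 0.75.

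Among the synthases, Nos1, the neuronal enzyme of nitrergic nerves, was not well above background on any of the 16 arrays. Its log2 signal was -7.08, -6.56, -6.83 and -7.77 in MAT males and -6.61, -7.61, -5.36 and -7.41 in AGED males. In females it was -7.10, -7.06, -6.87 and -7.88 (MAT) and -6.42, -7.56, -8.01 and -7.72 (AGED). Signals at this depth have no order, and no fold or test is given.

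Nos2, the inducible synthase of immune and epithelial cells, was well above background on all 16 arrays. Its log2 signal was -1.45, -1.53, -1.14 and -0.61 in MAT males and -0.80, -1.82, -2.25 and -1.54 in AGED males. In females it was -1.15, -0.87, -1.20 and -0.84 (MAT) and -1.19, -0.97, -0.57 and -1.08 (AGED). In males 3 of the 4 AGED arrays lay below every MAT array, while AGED male replicate 1 was above 3 of the 4 MAT arrays. The female groups overlapped. The log2 difference was -0.42 in males (95% interval -0.99 to 0.16, adjusted p = 0.461, left-out range -0.68 to -0.20, normexp -0.49) and 0.06 in females (95% interval -0.51 to 0.64, adjusted p = 0.967, left-out range -0.06 to 0.14, normexp 0.01). Without AGED male replicate 1 the male difference was -0.68 (adjusted p = 0.145), and the male groups then did not overlap, as for 1737 of all 26781 genes that were lower.

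Nos3, the endothelial synthase, had 2 probes, both well above background on all 16 arrays. The probe that represents the gene, the one with the higher mean, gave 2.20, 3.19, 1.87 and 0.91 in MAT males and 1.90, 2.36, 2.77 and 1.47 in AGED males. In females it gave 2.11, 1.60, 2.27 and 2.11 (MAT) and 2.98, 2.67, 1.99 and 1.61 (AGED). MAT males held both the highest and the lowest of these 16 values, on replicates 2 and 4, and the groups overlapped in both sexes. The difference was 0.08 in males (95% interval -0.82 to 0.98, adjusted p = 0.942, left-out range -0.29 to 0.46, normexp -0.52) and 0.29 in females (95% interval -0.61 to 1.19, adjusted p = 0.874, left-out range 0.07 to 0.53, normexp 0.26). These were the widest intervals of the 7 members, and the female one reached past a 2-fold difference. The other Nos3 probe gave -1.08, -0.84, -1.27 and -0.59 in MAT males and -1.27, -1.13, -1.65 and -0.87 in AGED males. On female arrays that probe gave -0.95, -1.43, -0.91 and -1.05 (MAT) and -0.36, -0.60, -1.28 and -1.08 (AGED). Its difference was -0.28 in males (adjusted p over all kept probes = 0.553) and 0.26 in females (adjusted p = 0.769). In males the probes thus had opposite signs, and neither passed. Which transcripts each probe hits was not compared, here or for the 2 probes of Mrvi1. The male difference of the probe that represents the gene was 0.16 without AGED male replicate 1.

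Soluble guanylyl cyclase is a heterodimer of an alpha and a beta subunit, and both subunit genes were well above background on all 16 arrays. Gucy1a1, the alpha subunit, had log2 signals of 1.97, 1.45, 1.78 and 1.80 in MAT males and 1.14, 2.51, 1.31 and 0.97 in AGED males. In females they were 2.0, 1.51, 1.54 and 1.94 (MAT) and 0.88, 1.24, 1.62 and 1.71 (AGED). AGED male replicate 2 was the highest of all arrays and the 3 other AGED males were below every MAT male, while in females AGED replicates 1 and 2 lay below every MAT array. The difference was -0.27 in males (95% interval -0.88 to 0.35, adjusted p = 0.674, left-out range -0.61 to -0.09, normexp -0.65) and -0.38 in females (95% interval -1.0 to 0.23, adjusted p = 0.698, left-out range -0.50 to -0.23, normexp -0.37). Leaving out AGED male replicate 1 gave -0.15 in males, and leaving out AGED male replicate 2 gave -0.61 (adjusted p = 0.139). With array weights the male difference was -0.03 (limma adjusted p = 0.985), nearer 0 than any value of the left-out range.

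Gucy1b1, the heme-binding beta subunit, had log2 signals of 0.61, 0.38, -0.04 and 0.77 in MAT males and -0.07, 0.99, 0.22 and 0.25 in AGED males. The female arrays gave 0.75, 0.46, 0.55 and 0.68 (MAT) and -0.16, 0.11, 0.45 and 0.39 (AGED). The male groups overlapped, again with AGED replicate 2 the highest of all arrays. In females all 4 AGED arrays were below all 4 MAT arrays, and the nearest pair, AGED replicate 3 and MAT replicate 2, differed in the second decimal. The female difference was -0.41 (95% interval -0.89 to 0.06), with an adjusted p of 0.541 from limma (left-out range -0.50 to -0.29, normexp -0.42) and p = 0.0286 in an exact two-sided permutation test, the smallest that 4 arrays against 4 can give. That p restates the separation and was not adjusted for the 14 comparisons of members, of which the others gave 0.0857 or more. That separation was lost with median scaling, where 0 of 7 members and 2860 of all 26781 genes were separate in females. The male difference was -0.08 (95% interval -0.56 to 0.39, adjusted p = 0.883, left-out range -0.30 to 0.06, normexp 0.11), and it was 0.06 without AGED male replicate 1.

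Pde5a, the phosphodiesterase that hydrolyses cyclic GMP in smooth muscle, was well above background on all 16 arrays. Males gave log2 signals of 1.07, 0.46, 0.99 and 1.29 (MAT) and 1.16, 0.95, 0.33 and 0.58 (AGED). Females gave 1.02, 0.60, 0.84 and 0.71 (MAT) and 0.73, 0.31, 0.56 and 0.52 (AGED). In females 3 of 4 AGED arrays lay below every MAT array, with AGED replicate 1 the exception, and in males the groups overlapped. The difference was -0.20 in males (95% interval -0.62 to 0.22, adjusted p = 0.644, left-out range -0.36 to -0.06, normexp 0.12) and -0.26 in females (95% interval -0.69 to 0.16, adjusted p = 0.703, left-out range -0.33 to -0.19, normexp -0.19). In males it was -0.33 without AGED male replicate 1.

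Prkg1 encodes the cyclic GMP-dependent kinase of smooth muscle and was well above background on all 16 arrays. The male arrays gave -0.78, -0.88, -0.92 and -0.77 (MAT) and -1.26, -0.66, -0.35 and -0.74 (AGED). The female arrays gave -0.90, -1.15, -0.78 and -0.75 (MAT) and -0.81, -1.07, -1.34 and -1.12 (AGED). The AGED males lay on both sides of the closely spaced MAT males, with AGED replicate 1 below all of them and the 3 others above, and the SD was 0.38 in AGED males against 0.07 in MAT males. The difference was 0.09 in males (95% interval -0.28 to 0.46, adjusted p = 0.830, left-out range -0.05 to 0.26, normexp 0.17) and -0.19 in females (95% interval -0.56 to 0.18, adjusted p = 0.769, left-out range -0.28 to -0.10, normexp -0.19). Leaving out the dimmest array gave a male difference of 0.26 (adjusted p = 0.383), with no overlap between the male groups (2012 of all 26781 genes were then separate and higher), and leaving out AGED male replicate 3 gave -0.05.

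Mrvi1, the kinase substrate that inhibits calcium release through inositol trisphosphate receptors, had 2 probes, both well above background on all 16 arrays. The probe that represents the gene gave 4.81, 4.70, 4.76 and 4.98 in MAT males and 4.17, 4.76, 4.51 and 4.21 in AGED males. In females it gave 4.95, 4.76, 4.72 and 4.71 (MAT) and 4.82, 4.26, 4.73 and 4.36 (AGED). In males 3 of 4 AGED arrays were below every MAT array while AGED replicate 2 lay within their range, and in females AGED replicates 2 and 4 were below every MAT array. The male difference was -0.40 (95% interval -0.73 to -0.07, adjusted p = 0.221, left-out range -0.51 to -0.32, normexp -0.21), the lowest adjusted p of any member in either sex, and it was -0.32 (adjusted p = 0.326) without AGED male replicate 1. The female difference was -0.24 (95% interval -0.57 to 0.10, adjusted p = 0.639, left-out range -0.33 to -0.14, normexp -0.26). The other probe gave -2.21, -2.26, -1.84 and -2.09 in MAT males and -1.66, -2.17, -2.56 and -2.64 in AGED males. On female arrays it gave -1.89, -2.13, -2.16 and -2.25 (MAT) and -1.51, -2.86, -2.26 and -1.93 (AGED). With that probe the MAT arrays lay within the range of the AGED arrays in both sexes, and the difference was -0.15 in males (adjusted p over all kept probes = 0.801) and -0.03 in females (adjusted p = 0.987). AGED male replicate 1, the dimmest array, gave the highest male value of that probe (-1.66). The other AGED males lay from -2.64 to -2.17, and the male difference of that probe without the dimmest array is not given.

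**Figure D2:**
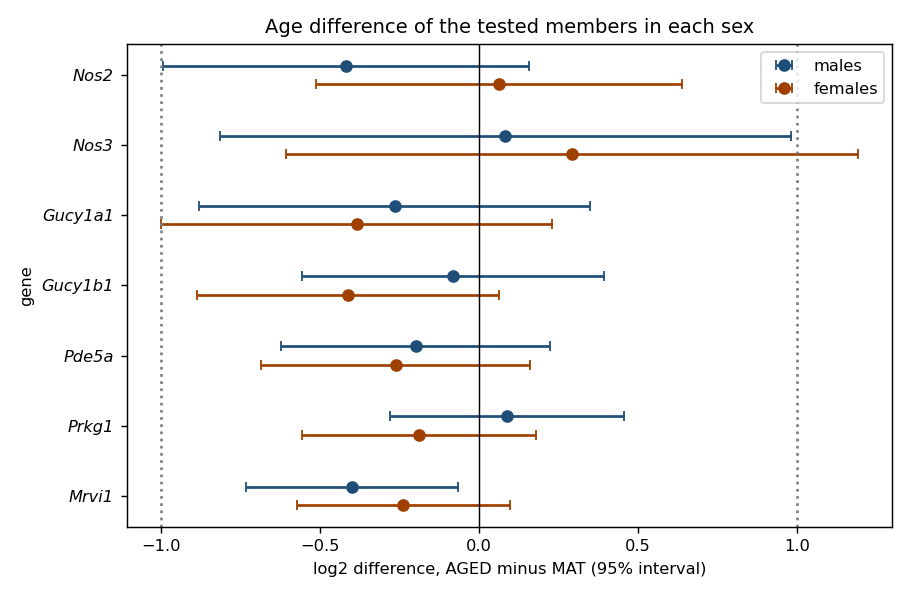
Log2 difference between AGED and MAT arrays (horizontal axis) of the 7 tested members (vertical axis) in males and females, with 95% intervals from limma; dotted lines mark 2-fold differences. The interval of Mrvi1 in males, -0.73 to -0.07, is the only one of the 14 that does not reach 0.

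The age difference was also compared between the sexes. Among the probes that represent the members, Nos2 showed the largest gap, with a male minus female difference of -0.48 (95% interval -1.30 to 0.33, adjusted p = 0.739), which was also the lowest adjusted p of the 7 members in this test. For Gucy1b1 it was 0.33 (adjusted p = 0.791) and for Prkg1 0.28 (adjusted p = 0.774). Without AGED male replicate 1 these differences were -0.75 for Nos2 (limma adjusted p = 0.314), 0.47 for Gucy1b1 (0.539) and 0.45 for Prkg1 (0.33). They were then farther from 0, and none passed. Ordered by group mean, Gucy1a1 went from 1.75 ± 0.22 (SD, n = 4) in MAT males over 1.75 ± 0.26 in MAT females and 1.48 ± 0.70 in AGED males to 1.36 ± 0.38 in AGED females. Pde5a had the same order of groups, from 0.95 ± 0.35 to 0.53 ± 0.17. Nos2 was highest in AGED females, at -0.95 ± 0.27, and lowest in AGED males, at -1.60 ± 0.61. For each of the 7 members, every step between neighbouring groups in its order was smaller than the larger of their SDs.

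Among the 21 pairs of members, the cyclase subunits had the highest r over the 16 arrays (Pearson r = 0.81, Spearman rho = 0.83). Within the 8 male arrays r was 0.74 and within the 8 female arrays 0.95, and after the group means were subtracted it was 0.79. Both genes were highest in AGED male replicate 2, and in females both were lowest in AGED replicate 1. Without these 2 arrays, the farthest from the median of Gucy1a1, r was 0.66, and without AGED male replicate 1 it was 0.79. The pair did not rank first in each of these: within males Nos2 and Pde5a (0.80) and Gucy1a1 and Mrvi1 (0.76) had a higher r, and without the same 2 arrays so had Gucy1a1 and Mrvi1 (0.81) and Gucy1b1 and Mrvi1 (0.72). The lowest r was that of Nos2 and Prkg1 (-0.76, rho = -0.66), with -0.76 within males and -0.67 within females. Within females Nos3 and Gucy1a1 (-0.68) had a lower r. Of 15753 named genes compared, Prkg1 ranked 104 among those most unlike Nos2. The r of Nos2 and Prkg1 was -0.54 without AGED male replicates 2 and 3, and -0.74 without AGED male replicate 1. The arrays of a sex share a slide and those of an age a slide row, and the coefficients describe these arrays.

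**Figure D3:**
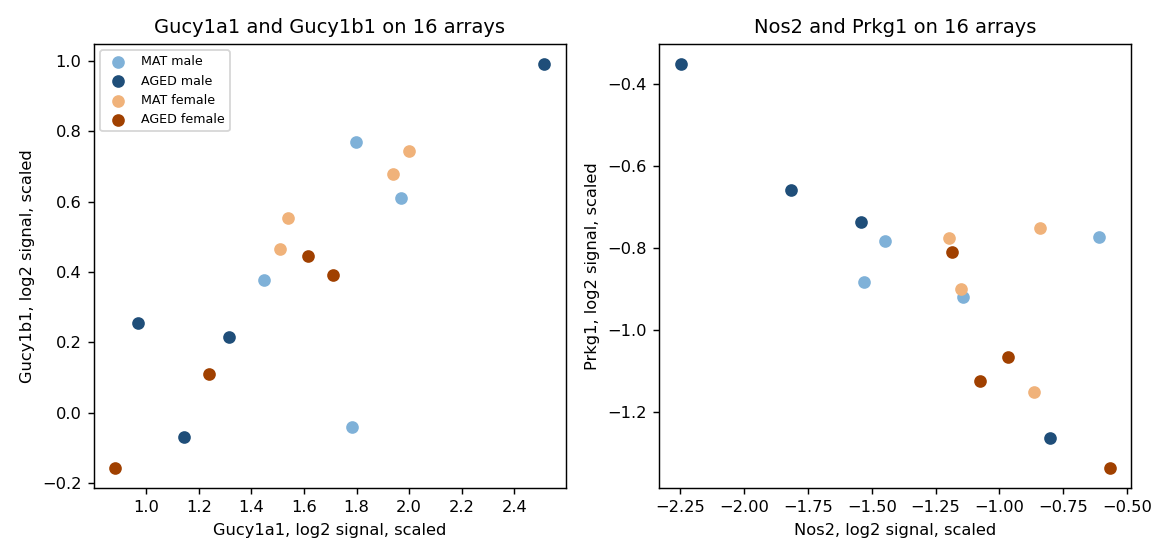
Scaled log2 signals of Gucy1a1 and Gucy1b1 (left) and of Nos2 and Prkg1 (right) on the 16 arrays, with a dot for each array coloured by group. The cyclase subunits lie along a rising line (r = 0.81) with AGED male replicate 2 at its upper end, and the dots of Nos2 and Prkg1 along a falling one (r = -0.76).

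The cyclase subunit genes are neighbours on chromosome 3, and their promoters are shown because their signals varied together. RefSeq (build GRCm38.p6) gives 250 bases before and 50 after each start, and 6 of the 8 members have an entry there. Gucy1b1 has 1 such promoter at chr3:82074662-82074961 and Gucy1a1 has 2, at chr3:82145601-82145900 and chr3:82145024-82145323, all on the minus strand. A match to known letters is a description and no evidence of binding. Capitals mark GC boxes and CCAAT boxes on either strand, and the sequences run 5′ to 3′ for Gucy1b1 and for the more upstream Gucy1a1 promoter:
Gucy1b1: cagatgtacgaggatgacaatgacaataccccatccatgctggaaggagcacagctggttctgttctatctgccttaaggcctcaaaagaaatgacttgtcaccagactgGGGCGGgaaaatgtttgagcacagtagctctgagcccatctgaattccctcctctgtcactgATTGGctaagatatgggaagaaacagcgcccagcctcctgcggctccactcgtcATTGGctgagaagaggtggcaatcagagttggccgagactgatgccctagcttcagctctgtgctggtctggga
Gucy1a1: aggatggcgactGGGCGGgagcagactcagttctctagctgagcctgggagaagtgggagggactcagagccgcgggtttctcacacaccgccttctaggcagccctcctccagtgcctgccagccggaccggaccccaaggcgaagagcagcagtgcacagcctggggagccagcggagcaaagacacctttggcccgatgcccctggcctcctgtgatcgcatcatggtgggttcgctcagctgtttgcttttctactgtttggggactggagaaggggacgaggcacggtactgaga
The GC box, GGGCGG or CCGCCC on the other strand, was found 1 time in each of the printed promoters and 0 times in the other Gucy1a1 promoter, and 35.7% of all 32851 mouse promoters in the table hold it. The CCAAT box reads ATTGG on the other strand. It was found 2 times in the Gucy1b1 promoter and 0 times in either Gucy1a1 promoter, and 37.4% of all promoters hold it. The TATAAA box (13.6% of all promoters), the E-box CACGTG (7.15%) and the AP-1 letters TGANTCA (7.81%) were in none of the 3 promoters. TGACG, part of a cyclic AMP response element (20.8%), was found 1 time for Gucy1b1 and 0 times for Gucy1a1.

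For each member the 3 other named genes with the most similar profile over the 16 arrays were listed, out of 15753 compared. Nos2 was most like Slamf7 (r = 0.89), Banf1 (r = 0.87) and Rfx1 (r = 0.86), of which Slamf7 is a receptor of immune cells. Nos3 was most like Pex14 (r = 0.84), Mtrex (r = 0.82) and Xrn2 (r = 0.80), where Mtrex and Xrn2 act in nuclear RNA decay. For Gucy1a1 they were 9530077C05Rik (r = 0.87), Asap3 (r = 0.86) and Vps37d (r = 0.86), and Gucy1b1 ranked 5 among the genes most like it. For Gucy1b1 they were C130074G19Rik (r = 0.85), Vtn (r = 0.85) and Dpy19l4 (r = 0.82), with Vtn encoding the adhesion protein vitronectin and Gucy1a1 again at rank 5. Pde5a was followed by Dusp26 (r = 0.87), Map3k20 (r = 0.86) and Atp6v0e2 (r = 0.84). Prkg1 was most like Txnrd3 (r = 0.90), St6galnac3 (r = 0.88) and Efna1 (r = 0.88), and Efna1 encodes an ephrin ligand. Mrvi1 was most like Rsu1 (r = 0.89), Mcm3ap (r = 0.88) and Pnldc1 (r = 0.87), of which Rsu1 belongs to integrin adhesions. None of the 21 genes was a member or stood in the lists of the pathway.

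A further 62 genes of the pathway were followed in 4 lists, and 58 of them were tested. In males limma called 1 of 58 lower (Kcnmb1) and 0 higher, beside 0.571% and 0.276% of all genes. At an unadjusted p under 0.05 with a 2-fold change it also called 1 lower and 0 higher, beside 437 and 310 of all 26781 genes. In females 0 of 58 were called in either direction. At that unadjusted p the female counts were also 0 higher and 0 lower, beside 329 and 180 of all genes, and they were 0 with the methods' t-test. The test of the difference between the sexes called 0 of 58, and 3 had an unadjusted p under 0.05, beside 2647 of all 26781 genes. In males the AGED arrays all lay above the MAT arrays for 1 of 58 genes and all below for 4, beside 3.91% and 4.06% of all genes. In females the counts were 2 above and 3 below, beside 5.02% and 5.78%.

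The list of NO synthesis and its supply covers enzymes of the cofactor tetrahydrobiopterin, arginine transport and turnover, and proteins that bind the synthases. None of the 20 genes was called by limma in either sex, with or without adjustment, at the 2-fold limit. The highest estimate of the 20 in males was that of Nosip, which binds the endothelial synthase (0.29, adjusted p = 0.269, left-out range 0.19 to 0.39, normexp 0.50; 0.19 without AGED male replicate 1). Its log2 signal was 2.46, 2.27, 2.11 and 2.19 in MAT males and 2.84, 2.44, 2.65 and 2.27 in AGED males, where replicates 1 and 3 lay above every MAT male and the groups overlapped. In females the highest was that of Gch1, the first enzyme of cofactor synthesis (0.73, adjusted p = 0.259, left-out range 0.63 to 0.87, normexp 0.68). Gch1 gave 0.69, 0.97, 1.24 and 0.56 in MAT females and 1.85, 1.52, 1.18 and 1.83 in AGED females. There 3 of 4 AGED arrays lay above every MAT array, with AGED replicate 3 the exception. The largest negative difference of the list in males was that of Dynll1, a dynein light chain that binds the neuronal synthase (-0.72, adjusted p = 0.0593, left-out range -0.85 to -0.59, normexp -0.38; -0.68 without AGED male replicate 1). Every AGED male array lay below every MAT male array for Dynll1, but the nearest values were -1.378 and -1.3751. In males 1 of the 20 genes was separate and lower and 1 higher, beside 4.06% and 3.91% of all genes. The female counts were 0 and 1, beside 5.78% and 5.02%. The largest negative difference in females was that of Nos1ap, an adaptor of the neuronal synthase (-0.31, adjusted p = 0.754, left-out range -0.44 to -0.12, normexp -0.22). The 20 genes had a median of 0.02 in males (left-out range -0.06 to 0.09, -0.06 without AGED male replicate 1, normexp 0.15) and 0.10 in females (left-out range 0.08 to 0.15, normexp 0.07). The male one was -0.01 with quantile scaling and -0.04 with median scaling.

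Of 10 genes of other cyclases and the natriuretic peptide system, 8 were tested, and limma called none in either sex, with or without adjustment, at the 2-fold limit. All 8 had estimates below 0 in both sexes, beside 29.3% of all genes, with medians of -0.29 in males (left-out range -0.44 to -0.23, -0.23 without AGED male replicate 1, normexp 0.00) and -0.32 in females (left-out range -0.34 to -0.23, normexp -0.14). Only 4 of the 8 were well above background on every array. The list was dim, with a mean log2 signal of -3.20 in MAT males beside -0.76 for all genes, and fewer probes were well above background on AGED arrays (52.3% to 61.2% in males, 59.9% to 63.2% in females) than on MAT arrays (60.4% to 65.9% and 64.6% to 68.2%). Of the 200 genes nearest in mean signal to each of the 8, 33.0% had estimates below 0 in both sexes, with medians of -0.01 in males and -0.06 in females. The part of array quality in this list was not tested further. The count of 8 was the same with quantile and median scaling and with the authors' log2 table, but 4 of 8 were below 0 in males with normexp background correction, and 6 in males and 7 in females with a floor on low signals. Every AGED array lay below every MAT array for 1 of 8 in males, beside 4.06% of all genes, and 1 of 8 in females, beside 5.78%. The male estimates ran from -0.50 for Nppa, the atrial natriuretic peptide (adjusted p = 0.272, left-out range -0.58 to -0.28, normexp -0.08), to -0.17 for Npr2, a receptor cyclase (adjusted p = 0.543, left-out range -0.23 to -0.13, normexp 0.01). The Nppa signal of AGED male replicate 1 was the lowest of all arrays, and without that array the estimates were -0.28 for Nppa and -0.14 for Npr2. In females the estimate nearest 0 was -0.11, for the cyclase subunit Gucy1b2 (adjusted p = 0.837, left-out range -0.20 to -0.03, normexp -0.15). Npr1, the receptor of that peptide, was well above background on 4 MAT and only 2 AGED female arrays, and with low signals raised to a floor its female difference was -0.33 (adjusted p = 0.715).

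Of 14 other phosphodiesterases and cyclic GMP exporters, 12 were tested, limma called none, also at an unadjusted p with the 2-fold limit, and none had separate AGED and MAT arrays in either sex. In males the estimates ran from -0.47 for Pde1b, a calcium-dependent phosphodiesterase (adjusted p = 0.436, left-out range -0.60 to -0.18, normexp -0.52), to 0.74 for Pde10a (adjusted p = 0.363, left-out range 0.55 to 1.07, normexp 0.76). Pde1b was smallest without AGED male replicate 3 and Pde10a largest without AGED male replicate 1. Without AGED male replicate 1, Pde1b was at -0.55 and Pde10a at 1.07, past 2-fold with an adjusted p of 0.146. In females they ran from -0.39 for Pde1b (adjusted p = 0.698, left-out range -0.56 to -0.18, normexp -0.49) to 0.38 for the exporter Abcc4 (adjusted p = 0.780, left-out range 0.14 to 0.57, normexp 0.45). The medians were 0.03 in males (left-out range -0.04 to 0.07, 0.07 without AGED male replicate 1, normexp 0.16) and -0.09 in females (left-out range -0.15 to -0.03, normexp -0.14), and the male one was -0.03 with median scaling.

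The 18 kinase targets and genes of smooth muscle relaxation were all tested. Kcnmb1, the beta1 subunit that raises the calcium sensitivity of the BK potassium channel in smooth muscle, had log2 signals of 0.76, 0.63, 0.60 and 0.20 in MAT males and -0.36, -0.06, -0.92 and -0.51 in AGED males. The female arrays gave 1.07, 1.07, 1.03 and 0.71 (MAT) and 1.08, 0.95, 1.19 and 0.82 (AGED). In males every AGED array was below every MAT array, and in females the groups overlapped. In AGED males Kcnmb1 fell, with a log2 difference of -1.01 (95% interval -1.39 to -0.63, adjusted p = 0.0103, left-out range -1.14 to -0.86, normexp -1.78), just past the 2-fold limit, and it was at 0.04 in females (95% interval -0.33 to 0.42, adjusted p = 0.966, left-out range -0.04 to 0.11, normexp 0.06). The difference between these age changes was -1.05 with an adjusted p of 0.116, which did not pass. The male change was -1.05 without AGED male replicate 1. It came under 2-fold, with an adjusted p still under 0.05, without MAT male replicate 1 (-0.94), 2 (-0.98) or 3 (-0.99), or AGED male replicate 3 (-0.86) or 4 (-0.99). The call was also lost when each sex was fitted alone (same fold, adjusted p = 0.161) and with array weights (-0.98, under 2-fold). The methods' t-test with adjustment did not call it either. The channel's pore gene Kcnma1 and the other 16 genes were not called.

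At the other end of that list in males stood Rhoa, a GTPase of the contractile pathway (0.34, adjusted p = 0.418, left-out range 0.08 to 0.47, normexp 0.54). MAT male replicate 2 had a Rhoa signal of 3.21, below the other MAT males at 4.07 to 4.38. The estimate was 0.08 without that array and 0.40 without AGED male replicate 1. In females the Rhoa difference was 0.34 (adjusted p = 0.597), with AGED arrays at 4.39 to 4.69 and MAT arrays at 4.04 to 4.32. Rhoa was thus the 1 of 18 genes with every AGED female array above every MAT female array, beside 5.02% of all genes. In females the estimates ran from -0.90 for Pln, which restrains the calcium pump of the sarcoplasmic reticulum (adjusted p = 0.169, left-out range -1.0 to -0.81, normexp -0.60), to 0.52 for Prkg2, the second cyclic GMP-dependent kinase (adjusted p = 0.369, left-out range 0.42 to 0.71, normexp 0.32). The Pln signals were -2.69, -3.06, -3.14 and -2.59 in MAT females and -3.84, -3.45, -3.75 and -4.02 in AGED females. All AGED female arrays thus lay below all MAT female arrays for Pln, 1 of 2 such genes among the 18, beside 5.78% of all genes. The Pln estimate was also negative in males, at -0.72 (limma adjusted p = 0.144), and was not called there either. The male groups overlapped for Pln, with AGED replicate 2 (-3.35) within the MAT range of -3.45 to -3.23. Its male minus female difference was 0.18 (limma adjusted p = 0.91). The male Pln difference without the dimmest array is not given. In males 2 of the 18, Kcnmb1 being 1 of them, were separate and lower and 0 higher, beside 4.06% and 3.91% of all genes. The medians of the list were -0.11 in males (left-out range -0.22 to -0.07, -0.22 without AGED male replicate 1, normexp 0.08) and -0.08 in females (left-out range -0.12 to -0.03, normexp -0.11).

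**Figure D4:**
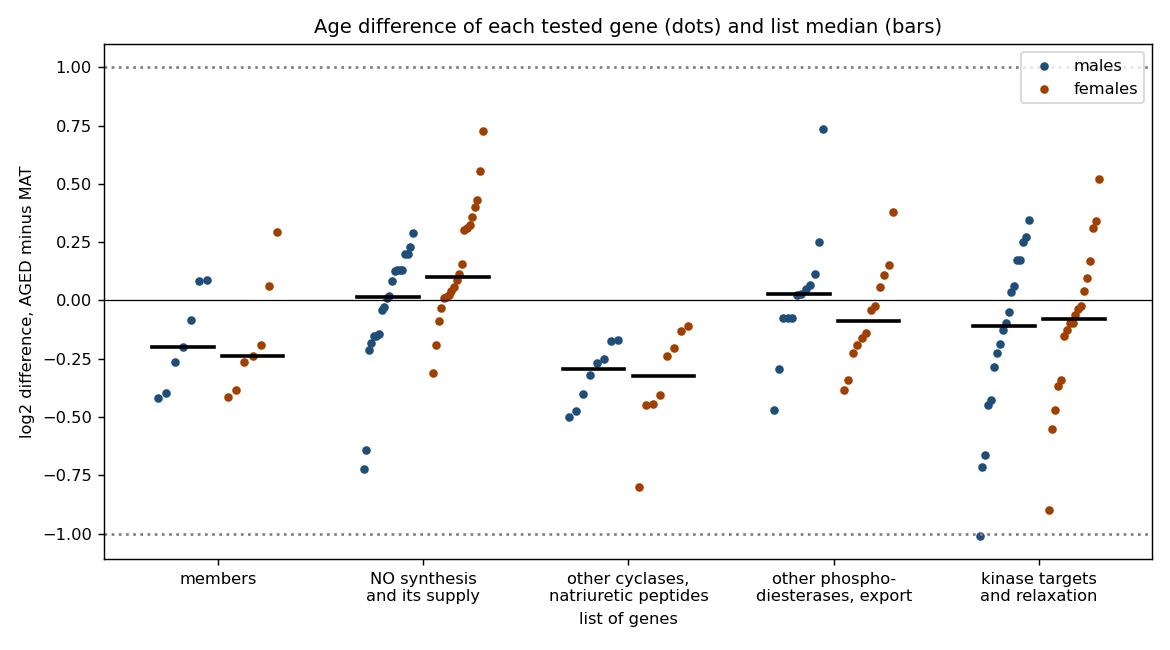
Log2 difference between AGED and MAT arrays (vertical axis) of each tested gene of the members and the 4 pathway lists (horizontal axis), with a dot for each gene and sex and a bar at the list median; dotted lines mark 2-fold differences. Kcnmb1 (-1.01 in males) lies farthest from 0 and is the gene called lower.

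Markers of the cells that carry the pathway were counted beside it. None of the smooth muscle (10 tested), endothelial (10), pericyte and interstitial cell (10) or peripheral nerve markers (13) was called by limma in either sex, and at an unadjusted p with the 2-fold limit 1 nerve marker was called lower in females, beside 180 of all 26781 genes, and 0 others in either sex. The smooth muscle medians were 0.03 in males (left-out range -0.04 to 0.07, -0.04 without AGED male replicate 1, normexp -0.02) and 0.01 in females (left-out range -0.05 to 0.14, normexp -0.01), and both were below 0 with quantile or median scaling. The endothelial medians were -0.14 in males (left-out range -0.21 to -0.06, -0.21 without AGED male replicate 1, normexp -0.03) and -0.04 in females (left-out range -0.14 to 0.01, normexp -0.07). Those of pericytes and interstitial cells were -0.09 in males (left-out range -0.11 to -0.06, -0.08 without AGED male replicate 1, normexp 0.04) and -0.04 in females (left-out range -0.08 to -0.03, normexp -0.11). As an example of each list, Cnn1 had log2 signals of 7.25 to 8.41 over the 16 arrays, Egfl7 of 3.82 to 4.59 and Ano1 of 4.74 to 5.59. Peripheral nerve markers (Mbp 3.18 to 4.32) had medians of -0.08 in males (left-out range -0.38 to 0.14, 0.02 without AGED male replicate 1, normexp 0.18) and -0.41 in females (left-out range -0.51 to -0.38, normexp -0.45). Every AGED female array lay below every MAT female array for 5 of 13 nerve markers, beside 5.78% of all genes, and above for 0. In males the counts were 0 below and 1 above, beside 4.06% and 3.91%, and the sexes were not tested against each other on these counts. AGED and MAT arrays of the 3 other lists were separate for 0 genes in males, and in females for 1 smooth muscle, 2 endothelial and 1 pericyte or interstitial marker, each of 10 and all lower. Between AGED and MAT the shown markers differed by 0.04 in males and 0.18 in females (Cnn1), -0.30 and 0.21 (Egfl7), 0.15 and 0.17 (Ano1), and 0.48 (adjusted p = 0.0697) and 0.14 (Mbp). Ano1 and Mbp in both sexes and Egfl7 in females had signs opposite to their lists' medians. The part of nerve content in the member signals was not tested.

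Among immune lists, 2 of 8 tested neutrophil markers were called higher in AGED males, S100a8 and S100a9, beside 0.276% of all genes, while 4 of the 8 had male estimates below 0. The paper instead lists S100a9 as lower in aged mice of both sexes, so the direction given here rests on the array labels. With exchanged labels S100a8 and S100a9 would be lower in AGED males. In females 0 were called, where limma's unadjusted p with the same fold limit called 4 higher, beside 329 of all 26781 genes. The log2 difference of S100a8 was 2.43 in males (adjusted p = 0.0211, left-out range 1.98 to 2.74, normexp 1.33), and that of S100a9 was 3.08 (adjusted p = 0.0125, left-out range 2.77 to 3.50, normexp 2.93), while in females they were 1.13 (adjusted p = 0.434, left-out range 0.79 to 1.32, normexp 0.84) and 1.63 (adjusted p = 0.321, left-out range 1.32 to 1.83, normexp 1.48). S100a8 lost its call without MAT male replicate 3 (adjusted p = 0.0755) or 4 (0.0509). Both calls were lost with the methods' t-test, adjusted, and when each sex was fitted alone. The male differences without AGED male replicate 1 were 1.98 and 2.84. The list's medians were 0.38 in males (left-out range 0.29 to 0.68, 0.29 without AGED male replicate 1, normexp 0.28) and 0.78 in females (left-out range 0.62 to 0.94, normexp 0.36), with Csf3r at 5.93 to 6.55 over the 16 arrays. Of 8 macrophage markers 0 were called, 1 higher in males at an unadjusted p with the 2-fold limit (310 of all 26781 genes), and Csf1r was at 4.84 to 6.55. Their medians were 0.37 in males (left-out range 0.05 to 0.47, 0.05 without AGED male replicate 1, normexp 0.24) and 0.43 in females (left-out range 0.26 to 0.56, normexp 0.37). Of 12 known inducers of Nos2 0 were called with or without adjustment, and Rela was at 4.80 to 5.86. Their medians were 0.38 in males (left-out range 0.05 to 0.45, 0.06 without AGED male replicate 1, normexp 0.26) and 0.18 in females (left-out range 0.11 to 0.23, normexp 0.18). Every AGED male array was above every MAT male array for 4 of 8 neutrophil markers, beside 3.91% of all genes, and for 0 macrophage markers and inducers, with 0 below. In females the counts above were 3 of 8 neutrophil markers, 2 of 8 macrophage markers and 3 of 12 inducers, beside 5.02%, and those below 1, 1 and 0, beside 5.78%. The shown markers differed by -0.04 in males and 0.09 in females (Csf3r), 0.38 and -0.08 (Csf1r), and -0.23 and 0.07 (Rela), so that Csf3r and Rela in males and Csf1r in females opposed their lists' medians. The Csf1r signal was 6.55 in AGED male replicate 1 and 5.70 to 5.79 in the other AGED males. Nos2 itself was not called in either sex, and the part of these cells in its signal was not tested.

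Limma called no gene in the remaining lists, and at an unadjusted p with the 2-fold limit it called 1 skeletal muscle marker lower in males, beside 437 of all 26781 genes, and 1 adipocyte marker lower in females, beside 180. The 10 urothelium markers had medians of -0.01 in males (left-out range -0.09 to 0.07, 0.07 without AGED male replicate 1, normexp -0.10) and 0.17 in females (left-out range 0.11 to 0.25, normexp 0.15), with Upk1a at 7.03 to 7.82 over the 16 arrays. The 8 tested skeletal muscle markers had medians of -0.13 in males (left-out range -0.40 to -0.02, -0.40 without AGED male replicate 1, normexp -0.46) and -0.01 in females (left-out range -0.09 to 0.02, normexp 0.01), with Acta1 at 3.51 to 5.40. The 8 adipocyte markers had medians of -0.26 in males (left-out range -0.93 to 0.02, -0.32 without AGED male replicate 1, normexp -0.08) and -0.95 in females (left-out range -1.20 to -0.46, normexp -0.66) (Fabp4 4.91 to 6.09). The AGED and MAT arrays were separate for 1 of 10 urothelium markers in males and 1 of 8 adipocyte markers in females, both lower, beside 4.06% and 5.78% of all genes, and for 0 others of these lists. The shown markers differed by -0.08 in males and 0.12 in females (Upk1a), -0.85 (adjusted p = 0.213) and -0.03 (Acta1), and -0.29 and -0.01 (Fabp4, in females far from the list's median). The Acta1 signal was 5.12 in AGED male replicate 1 and 3.51 to 4.58 in the other AGED males.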

How the data were processed

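Gene expression was measured with 16 Agilent 1-colour arrays, 4 for each sex and age. Per the file headers the intensity values were extracted with Feature Extraction 10.7.3.1, while the submitters' notes name version 9.1; the processed signal, already corrected for background by that software, was used here. The authors' log2 table was found to hold the log2 processed signal less 1 constant for each array, centred on the median of each probe, with column medians from -0.13 to 0.29; how the constants were chosen is not known. Signals of replicate spots were averaged, 399 probe values with an outlier flag were left out, and 0 spots were saturated. From each log2 signal the 75th percentile over the spots of its array was taken off. The share of probes well above background was 60.4% to 65.9% in MAT males, 52.3% to 61.2% in AGED males, 64.6% to 68.2% in MAT females and 59.9% to 63.2% in AGED females.

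Of 55681 probes, 26582 were named through the RefSeq annotation of build GRCm38.p6 by their listed accession. Probes well above background on at least 4 of 16 arrays were kept (36972), and the kept probe of highest mean stood for its gene (26781 genes, 15933 of them with a symbol). limma 3.58.1 fitted a mean for each group over all 16 arrays with 12 residual degrees of freedom, and its moderated tests compared AGED with MAT in each sex and the age difference of males with that of females. P values were adjusted by Benjamini and Hochberg over all genes, and a gene was called at an adjusted p under 0.05 with at least a 2-fold change (no fold limit for the difference between the sexes). Exact two-sided permutation tests are named where used. The members and lists were chosen with earlier results of these data known. Some further genes of the lists are not reported here. Genes named from a list are those called, the 1 with the highest and the 1 with the lowest estimate in a sex, and from each marker list the gene with the highest mean signal, a choice that ranks probes and not amounts of RNA. The alternatives were other scalings (quantile, median, the authors' log2 table, normexp background correction with an offset of 50), other filters, a floor on low signals, the mean of a gene's probes, t-tests, each sex fitted alone, array weights, a replicate block and leaving out each array. Python 3.11.15 with pandas 2.3.3, NumPy 2.4.6 and SciPy 1.17.1, R 4.3.3 and matplotlib 3.10.9 were used.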

Additional observations from a re-analysis of the deposited data

Results flagged for a closer look

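In a group of 4 arrays, a value was marked when it lay far from the 3 others by Dixon's test. Of 144 groups examined, 9 had such a value, and chance marks about 1 in 20 groups. None of the 36 groups of member probes did. AGED male replicate 1, the dimmest array, was apart for Nppa (-4.58, the others -3.75 to -3.67) and for the macrophage marker Csf1r (6.55, the others 5.70 to 5.79). Other AGED male arrays were apart for Dynll1 (replicate 2 at -1.38, the others -1.90 to -1.89) and Pde1b (replicate 3 at -0.34, the others 0.73 to 0.90). MAT male arrays were apart for Nos1ap (replicate 1 at 0.11, the others -0.47 to -0.40), Gucy1b2 (replicate 2 at -3.39, the others -3.56 to -3.55) and Acta1 (replicate 2 at 4.80, the others 5.34 to 5.40). Among females, Kcnmb1 was lower in MAT replicate 4 (0.71, the others 1.03 to 1.07) and Upk1a in AGED replicate 3 (7.03, the others 7.62 to 7.68).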

How the results depend on the processing

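No member was called under any setting run, in either sex or in the difference between the sexes. Among estimates of single genes under settings other than leaving out an array, 716 kept their sign and side of the threshold, 9 reversed, 7 lost a call and 3 gained one. With 1 array left out 647 kept both, 18 reversed and 7 lost a call. Calls over all genes moved with the settings as well: in males 227 in all, 719 of 26526 with normexp, 202 with the mean of a gene's probes, 0 with the adjusted t-test, 14 with each sex fitted alone, 256 with array weights, 747 with limma's unadjusted p, and 122 to 380 with an array left out. Of the 227 male calls 74 were higher and 153 lower, against 61 and 658 with normexp. Without a filter on dim probes 547 of 37208 genes were called in males, 391 higher and 156 lower. In females the calls numbered 50, and 393 with the unadjusted t-test, 509 with limma's unadjusted p and 197 with array weights. The female count fell to 18 without a filter on dim probes, 3 with a replicate block and 1 with the adjusted t-test. It ran from 1 to 127 with an array left out. For the difference between the sexes the calls numbered 40, and 418 with normexp, 2647 with limma's unadjusted p, 280 with array weights and 6 to 278 with an array left out. Beside these, the other pathway genes called in males numbered 1, and 3 with normexp, 2 with the mean of a gene's probes, and 0 with the adjusted t-test, each sex fitted alone or array weights (0 to 1 with an array left out). The marker genes called in males numbered 2, and 4 with normexp, 5 with limma's unadjusted p, and 0 with the adjusted t-test or each sex alone (1 to 3 with an array left out). In females 0 marker genes were called, and 5 with the unadjusted t-test, 6 with limma's unadjusted p and 2 with array weights. For the difference between the sexes 0 were called, and normexp gave 1 pathway and 1 marker gene, limma's unadjusted p 3 and 8, array weights 1 marker gene, and an array left out 0 to 1 of each. Members that did not overlap numbered 0 in males (1 with median scaling, Mrvi1; 0 to 2 with an array left out), where all genes gave 2135, 1942 and, with a male array left out, 2755 to 3749. In females 1 did not overlap (0 with median scaling, 1 to 2 with an array left out), and all genes gave 2893, 2860 and, with a female array left out, 3343 to 6151. With 3 arrays against 4, groups separate more often by chance. The 6151 came without AGED female replicate 3, the brightest array (median signal 147.3). Leaving out any other female array gave 3343 to 4331, and the reason for that gap was not tested. Estimates that reversed in males were, with normexp, Nos3 (-0.52), Gucy1b1 (0.11), Pde5a (0.12) and Npr2 (0.012), with the mean of a gene's probes Nos3 (-0.10), and with array weights Gucy1b1 (0.25). With an array left out, Nos3 ran from -0.29 to 0.46, Gucy1b1 from -0.30 to 0.058 and Prkg1 from -0.046 to 0.26 in males, and Nos2 from -0.065 to 0.14 and Kcnmb1 from -0.045 to 0.11 in females. The difference between the sexes reversed for Gucy1a1 (-0.28) and Mrvi1 (0.048) with normexp and for Mrvi1 with array weights (0.008); with an array left out it ran from -0.59 to 0.17 for Nos3, -0.22 to 0.29 for Gucy1a1 and -0.10 to 0.21 for Pde5a. The cause was not tested. A paired fit with a replicate block called 0 members, 1 pathway gene and 2 marker genes in males, beside 183 of all 26781 genes. In females that fit called 0 of each, beside 3 of all 26781 genes. Replicate numbers do not pair the samples: profiles of the same number correlated at -0.15 to 0.07, and the best match had the same number for 1 of 4 males and 1 of 4 females. The difference between the sexes could not be given with t-tests or each sex alone.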
